A study of Homo sapiens with 6 samples.

Results

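The genes described here are 10 parts of the mTOR kinase pathway, MTOR, RPTOR, RICTOR, MLST8, TSC1, TSC2, RHEB, EIF4EBP1, DDIT4 and SESN2. They were found by gene symbol in the annotation of an Illumina bead array, which assigned 11 of its 22184 probes to them, 2 probes to TSC2 and 1 to each other gene. SH-SY5Y, the line in which they were read, is an established neuroblastoma cell line of human origin with sympathoadrenal character. There were 3 arrays of cells given atrazine, a triazine herbicide, and 3 arrays of cells given the vehicle dimethyl sulfoxide (DMSO). Both groups were grown in DMEM/F12 medium with serum. The sources used here give neither the concentration of atrazine nor how long it was applied. By its title, the study asked about endoplasmic reticulum stress, insulin signalling and damage to mitochondria. The labels number 3 replicates per group without saying whether each was its own culture. The spread behind every p-value is therefore that between arrays and may be technical.

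The kinase encoded by MTOR works in a pair of complexes that share the subunit MLST8. Raptor, encoded by RPTOR, defines mTORC1, which drives protein synthesis and restrains autophagy when amino acids and growth factors are plentiful, and Rictor defines mTORC2, which phosphorylates AKT and SGK1 in response to insulin. The small GTPase RHEB activates mTORC1 at the lysosome, and the TSC complex of TSC1 and TSC2 switches RHEB off. EIF4EBP1 encodes a repressor of cap-dependent translation that mTORC1 inactivates by phosphorylation. DDIT4 (REDD1) and SESN2 (Sestrin) are induced by stress, in part through the transcription factor ATF4, and both restrain mTORC1. In neurons and neuroblastoma cells the pathway links nutrient and insulin signals to growth. Arrays measure RNA, and the activity of these kinases was not measured.

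Of the 11 probes, 8 were above background on all 6 arrays and were tested, and 3 were not above background on any array (RPTOR, SESN2 and 1 probe of TSC2). Among the 8, DDIT4 and MLST8 rose in atrazine, TSC1 and MTOR fell, and RICTOR, RHEB, EIF4EBP1 and the other TSC2 probe did not pass the test. The 4 of 8 that passed (50%) stand beside 66.8% of all 12969 probes tested, of which 27.6% were higher and 39.2% lower in atrazine. The share among these genes was thus no larger than that over the array. Values below are log2 normalised intensities unless raw intensity is named. Tests are limma's, with Benjamini-Hochberg adjustment over all probes tested and a threshold of 0.05, and differences are atrazine minus DMSO. A probe counted as above background where its detection p-value was under 0.05. Because scaling bears on direction, differences are also given with the arrays shifted to a common median (median scaling) or to a common mean of 12 housekeeping genes (housekeeping scaling). In the main test 4 of these 12 genes passed themselves (33.3%), so they are not a fixed reference. SDHA was higher in atrazine (0.83) and 3 were lower, TFRC the most (-1.76).

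**Figure D1:**
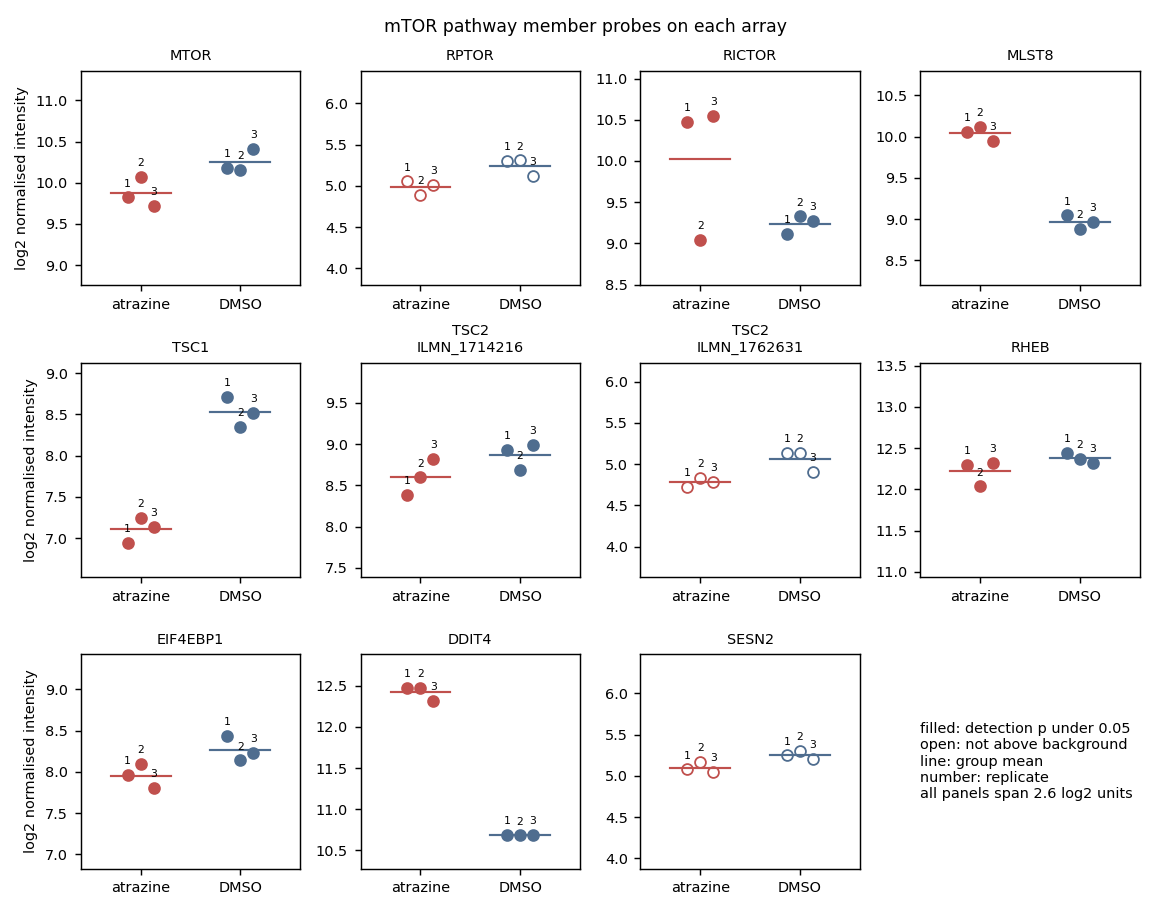
Log2 normalised intensity of each of the 11 probes on each array, atrazine left and DMSO right, with the replicate number at each point and the group mean as a line. Filled points had a detection p-value under 0.05, and open points were not above background. DDIT4 and MLST8 are higher and TSC1 is lower on every atrazine array, and for RICTOR atrazine replicate 2 lies at 9.04, apart from 10.47 and 10.55 on the other atrazine arrays.

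The arrays of the groups differed in brightness before any gene was compared. Mean raw intensity was 235.1, 254.0 and 311.3 units on the atrazine arrays and 586.6, 939.1 and 532.2 on the DMSO arrays. The share of probes above background was 43.6% to 52.0% in atrazine and 58.9% to 59.8% in DMSO. Atrazine replicate 2 stood apart, correlating across probes at r = 0.966 and 0.961 with the other atrazine arrays, which correlated with each other at 0.993. DMSO arrays correlated at 0.992 to 0.994, and the pairs between groups at 0.793 to 0.883. Quantile normalisation gives every array the same distribution of values, so a normalised rise is a rise relative to the other probes of the array. A lower content of an RNA per cell and fewer cells that hold it cannot be told apart in RNA of whole cultures. Of 12 sympathoadrenal marker genes with a probe, 11 were above background on all 6 arrays. HAND2 was the exception. Their summed normalised intensity was 37043 to 38110 in atrazine and 52106 to 56936 in DMSO. Such a sum weighs the brightest genes most. Of the 11 tested one by one, 2 rose (TH by 1.08 and HAND1 by 0.30), 6 fell and 3 did not pass. Among all genes read from their probe of highest mean, 66.2% passed. Markers of mesenchymal-type neuroblastoma cells summed over 12 genes to 10935 to 11276 in atrazine and 6391 to 7606 in DMSO, with PRRX1 above background on 3 atrazine arrays and 0 DMSO arrays, SNAI2 and COL1A2 on 0 atrazine and 3 DMSO arrays, and FN1, YAP1, WWTR1 and NOTCH2 on none. Of the 8 mesenchymal markers tested, 4 rose, 2 fell and 2 did not pass. Epithelial markers summed over 6 genes to 250.1 to 279.9 in atrazine and 183.9 to 213.6 in DMSO. KRT18 was above background on all 6 arrays and rose by 1.27. KRT8 was above background on 0 atrazine and 3 DMSO arrays, and EPCAM on 2 atrazine and 3 DMSO arrays. CDH1 was above it on 0 atrazine and 2 DMSO arrays, and KRT19 and CLDN4 on none. Of the 3 epithelial markers tested, 1 rose, 1 fell and 1 did not pass. Leukocyte markers summed over 5 genes to 142.1 to 172.0 in atrazine and 95.7 to 103.8 in DMSO. PTPRC was above background on 3 atrazine arrays and 0 DMSO arrays, and LYZ on 2 atrazine and 0 DMSO arrays. CD68 was above it on 0 atrazine and 2 DMSO arrays, and CD3E and CD14 on none. The part of brightness and of these markers in the results below was not tested.

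The windows before the annotated gene starts are shown first for DDIT4 and TSC1, the members with the largest rise and the largest fall, and for TSC2, the partner of TSC1. They are the 250 bases upstream in RefSeq on GRCh38.p14, on chromosome 10 (chr10:72273674-72273923, plus strand), chromosome 9 (chr9:132944617-132944866, minus strand) and chromosome 16 (chr16:2047735-2047984, plus strand). Each is written 5′ to 3′ in the direction of the gene. Capitals mark matches on either strand to TGATGNAA, which resembles the element bound by ATF4 with a C/EBP partner, to ACGTG, the core of the hypoxia response element, to the E-box CACGTG, which contains ACGTG, and to the GC box GGGCGG.
DDIT4: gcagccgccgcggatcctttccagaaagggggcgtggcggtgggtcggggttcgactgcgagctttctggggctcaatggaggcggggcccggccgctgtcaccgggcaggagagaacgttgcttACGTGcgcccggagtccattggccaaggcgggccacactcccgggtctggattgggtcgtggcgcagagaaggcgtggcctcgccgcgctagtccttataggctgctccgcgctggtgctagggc
TSC1: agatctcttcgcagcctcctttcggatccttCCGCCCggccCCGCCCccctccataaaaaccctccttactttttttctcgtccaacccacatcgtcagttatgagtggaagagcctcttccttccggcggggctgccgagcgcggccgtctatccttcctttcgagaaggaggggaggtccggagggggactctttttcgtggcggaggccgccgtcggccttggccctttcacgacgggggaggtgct
TSC2: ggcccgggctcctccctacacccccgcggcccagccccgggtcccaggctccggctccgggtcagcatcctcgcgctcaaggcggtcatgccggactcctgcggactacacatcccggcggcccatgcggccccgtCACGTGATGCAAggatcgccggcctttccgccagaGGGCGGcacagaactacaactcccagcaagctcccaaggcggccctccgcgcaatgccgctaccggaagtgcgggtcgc

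The DDIT4 window held 1 ACGTG, 125 bases before the gene start. Among 35116 windows of the same length, 18.5% held this motif. The TSC1 window held 2 GC boxes on the reverse strand, 219 and 209 bases before the start, and none of the other motifs, and a GC box was in 42.6% of windows. The TSC2 window was the only one among these genes with TGATGNAA, matched as TGATGCAA 110 bases before the start, where it overlaps the E-box at 114. TGATGNAA was found in 3.14% of all windows and CACGTG in 6.34%. RefSeq windows were matched for 8 of the 10 genes, with 2 windows for TSC2, and EIF4EBP1 and MLST8 were not matched. ACGTG was in the windows of 4 of these genes and GGGCGG in those of 6. A match of letters is a description of the window and not a binding site.

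Among the brakes on mTORC1, DDIT4 gave the clearest rise. DDIT4, whose product REDD1 activates the TSC complex under stress (probe ILMN_1661599), read 12.47, 12.47 and 12.31 on the atrazine arrays, against 10.68, 10.68 and 10.69 on the DMSO arrays. The groups were wide apart and each was tight. The difference was 1.73 (SE 0.10, 95% interval 1.51 to 1.96), 3.33-fold, with a limma adjusted p of 1.76e-05, and 5.54% of all tested probes had a higher difference. In raw intensity DDIT4 read 2579.8, 2723 and 3209 in atrazine, against 2246, 3817 and 1961 in DMSO. The raw values therefore overlapped, on atrazine arrays whose mean signal was lower. The rise held at 0.86 under median scaling (adjusted p = 1.68e-04) and at 1.89 under housekeeping scaling (adjusted p = 4.37e-07), and was 1.68 without atrazine replicate 2.

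SESN2, a leucine sensor and stress-induced brake (probe ILMN_1751598), was not above background on any array. Its raw intensities were 64.7, 71.0 and 75.1 in atrazine, against 85.0, 128.4 and 84.1 in DMSO, with detection p-values of 0.233 to 0.257 in atrazine and 0.0565 to 0.0918 in DMSO. Normalised values were 5.08, 5.17 and 5.04 in atrazine and 5.25, 5.30 and 5.20 in DMSO. All lay at the background level of the array, where a change in SESN2 RNA was not detectable with this probe.

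**Figure D2:**
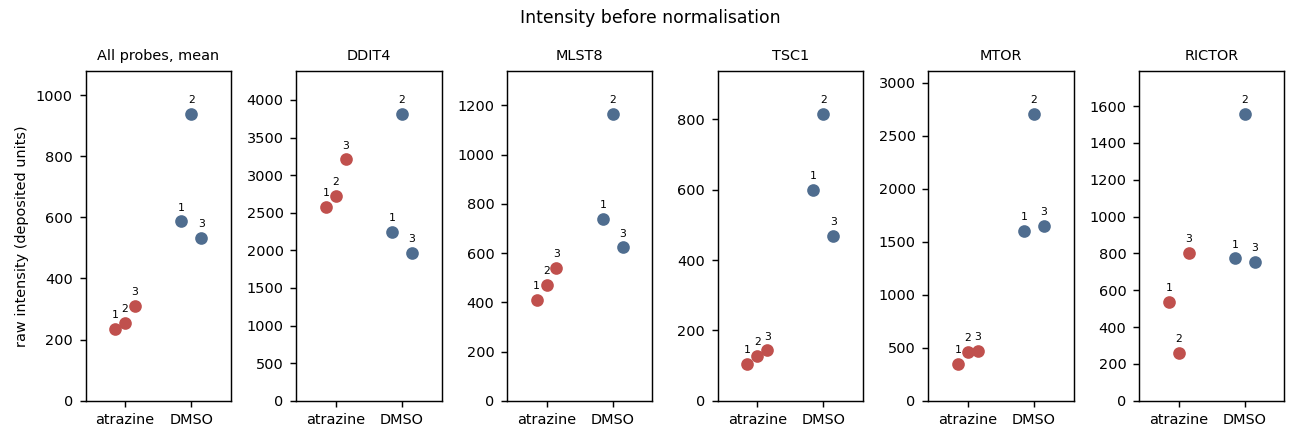
Raw intensity in the deposited units, before background correction and normalisation, for the mean of all probes and for 5 of the genes, atrazine left and DMSO right, with the replicate number at each point and axes that start at 0. The mean signal of the atrazine arrays is 235.1 to 311.3 and that of the DMSO arrays 532.2 to 939.1, whereas DDIT4 overlaps between the groups.

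The TSC complex, the inhibitor of RHEB, had 1 subunit gene that fell. TSC1, which encodes hamartin, the subunit that stabilises the complex (probe ILMN_1797367), read 6.94, 7.25 and 7.13 in atrazine, against 8.71, 8.35 and 8.52 in DMSO. Every atrazine value was below every DMSO value. The difference was -1.42 (SE 0.14, 95% interval -1.74 to -1.10), 2.68-fold lower in atrazine, with a limma adjusted p of 1.32e-04. In raw intensity TSC1 read 103.7, 126.4 and 142.9 in atrazine, close to background at detection p-values of 0.0155 to 0.0169, against 600.4, 815.9 and 467.8 in DMSO. The fall was -1.18 under housekeeping scaling and -2.22 under median scaling and passed under both, and 6.48% of all tested probes had a lower difference.

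TSC2 encodes tuberin, the subunit that carries the GTPase-activating domain, and its 2 probes are annotated to different RefSeq transcripts. Probe ILMN_1714216 read 8.38, 8.60 and 8.82 in atrazine, against 8.93, 8.69 and 8.99 in DMSO. The groups overlapped, and the difference of -0.27 (95% interval -0.62 to 0.08) did not pass (limma adjusted p = 0.141). It passed at -0.35 under housekeeping scaling (adjusted p = 0.046) and at -1.38 under median scaling (6.97e-05). Probe ILMN_1762631 was not above background on any array, with raw intensities of 50.5, 56.8 and 60.0 in atrazine and 79.6, 115.2 and 70.9 in DMSO. One of the probes alone thus carries the measurement of TSC2.

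RHEB, the GTPase that activates mTORC1 (probe ILMN_1657949), was bright on every array. It read 12.30, 12.04 and 12.32 in atrazine, against 12.44, 12.37 and 12.33 in DMSO. The atrazine values lay just below those in DMSO without overlap. That separation was shared by 75% of all probes tested. The difference of -0.16 (95% interval -0.43 to 0.11) did not pass (limma adjusted p = 0.246), so a fall of up to 0.43 or a rise of up to 0.11 lies within its interval. Under housekeeping scaling it was 0.050, and under median scaling it was -0.98 and passed (adjusted p = 8.43e-04).

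Of the subunits of the complexes, the shared one rose and the kinase fell slightly. MLST8, which stabilises the active site of the kinase in both complexes (probe ILMN_1789240), read 10.06, 10.12 and 9.94 in atrazine, against 9.05, 8.88 and 8.97 in DMSO. The groups did not overlap, and the difference of 1.08 (SE 0.10, 95% interval 0.83 to 1.32), 2.11-fold, had a limma adjusted p of 1.32e-04. In raw intensity MLST8 was lower in atrazine, at 411.1, 471.9 and 539.2, against 740.3, 1167 and 622.9 in DMSO. The direction depended on the scaling, since it rose by 0.90 under housekeeping scaling (adjusted p = 1.17e-04), while median scaling turned it to -0.13, not past the threshold (adjusted p = 0.300).

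MTOR, the kinase itself (probe ILMN_1769031), read 9.82, 10.07 and 9.71 in atrazine, against 10.18, 10.16 and 10.41 in DMSO. Atrazine replicate 2 came within 0.1 of the lowest DMSO array, though the groups did not overlap. The difference of -0.38 (SE 0.13, 95% interval -0.69 to -0.06) passed narrowly (limma adjusted p = 0.0384). That call was lost without atrazine replicate 1 (adjusted p = 0.102) or 3 (0.114) and without DMSO replicate 1 (0.0659), 2 (0.0579) or 3 (0.128), and was kept without atrazine replicate 2 (-0.48, adjusted p = 0.00563). Under housekeeping scaling MTOR fell by 0.58 and under median scaling by 1.61 on the log2 scale, and both passed.

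RPTOR, which encodes Raptor, the substrate-binding subunit of mTORC1 (probe ILMN_1793514), was not above background on any array. Its raw intensities were 64.1, 59.7 and 73.8 in atrazine, against 87.4, 128.9 and 80.7 in DMSO. RICTOR, the scaffold of mTORC2 (probe ILMN_1727171), read 10.47, 9.04 and 10.55 in atrazine, against 9.11, 9.33 and 9.27 in DMSO. Atrazine replicates 1 and 3 were above every DMSO array, and replicate 2 was below all of them. The difference of 0.78 (95% interval -0.11 to 1.68) did not pass (limma adjusted p = 0.104). Without atrazine replicate 2 it was 1.27 (SE 0.12) and passed (adjusted p = 8.88e-06), and under median scaling of all 6 arrays it was -0.39 and did not pass. That array was the one that correlated least with its group, so the level of RICTOR in atrazine rests on how much weight it is given.

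EIF4EBP1, the repressor of cap-dependent translation downstream of mTORC1 (probe ILMN_1767324), read 7.96, 8.09 and 7.81 in atrazine, against 8.44, 8.14 and 8.23 in DMSO. Its groups did not overlap, with a gap under 0.1 between the nearest arrays. The difference of -0.31 (SE 0.13, 95% interval -0.61 to -0.01) did not pass the threshold after adjustment (limma adjusted p = 0.0618). It passed without atrazine replicate 2 (-0.39, adjusted p = 0.0206), and gave -0.28 under housekeeping scaling and -1.32 under median scaling, of which the second passed. Over the 8 tested probes the median difference was -0.22, and over all tested probes it was -0.19.

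**Figure D3:**
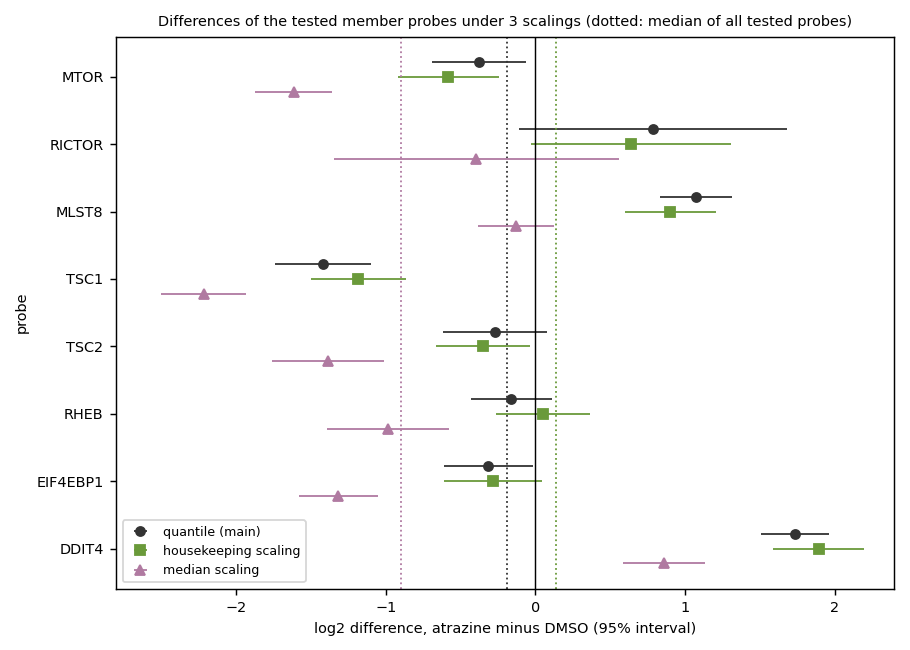
Log2 difference, atrazine minus DMSO, of the 8 tested probes with 95% intervals, after quantile normalisation (circles), housekeeping scaling (squares) and median scaling (triangles). Dotted lines mark the median of all tested probes in each setting, at -0.19, 0.14 and -0.90. DDIT4 lies above 0 and TSC1 below 0 in each, MLST8 changes sign under median scaling, as does RICTOR, and RHEB changes sign under housekeeping scaling.

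The scalings differ in the level that they hold fixed, and the median difference of all tested probes was -0.19 after quantile normalisation, 0.14 after housekeeping scaling and -0.90 after median scaling. Read relative to that median, the difference of DDIT4 was 1.92 after quantile normalisation and 1.76 after both other scalings. Housekeeping and median scaling each shift an array by a constant, so their values relative to the median are equal by construction. For MLST8 the relative difference was 1.26 and 0.77 in the same order. TSC1 stood at -1.23 and -1.32 relative to the median, and MTOR at -0.19 and -0.72. Each of these genes, MTOR included, thus kept its side of the median of all probes. The distances of MTOR and MLST8 from that median moved more than those of DDIT4 and TSC1.

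**Figure D4:**
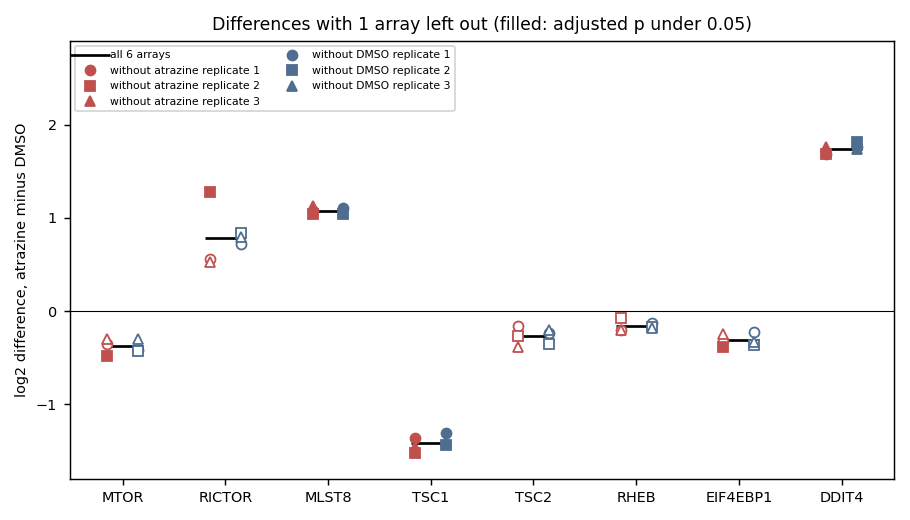
Log2 difference, atrazine minus DMSO, of the 8 tested probes with 1 array left out, red for atrazine and blue for DMSO arrays, with filled symbols where the adjusted p was under 0.05 and a black bar for all 6 arrays. DDIT4, MLST8 and TSC1 are filled throughout, MTOR and EIF4EBP1 only without atrazine replicate 2, and RICTOR moves to 1.27 without that array.

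Profiles over the 6 arrays were also compared with those of 10648 other tested genes, by the root mean square distance of mean-centred log2 values. The nearest to DDIT4 were ZFAND5 (0.0468), KPNA4 (0.0515) and ZFPM1 (0.0576), against a median distance of 0.979 over all genes. For MTOR they were SERTAD3 (0.0321), ODAD3 (0.0375) and ALG3 (0.0433), against a median of 0.374. For RHEB they were SF3A1 (0.0361), KLHL8 (0.0374) and HES6 (0.0418), against a median of 0.349. SESN2 lay nearest to TUBB2B (0.0246), MAP3K20 (0.027) and TMEM179B (0.0308), against a median of 0.342 over 10649 genes, a likeness of a profile at background. With 2 groups of 3 arrays, such likeness says only that the values moved by a similar amount on the same arrays.

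Other parts of the pathway were read from lists, with each gene taken from its probe of highest mean, which gave 66.2% of 10649 genes past the threshold (27% higher, 39.2% lower). Under median scaling 83.7% of all 12969 probes passed, 8880 of them lower and 1979 higher in atrazine, and the counts under that scaling below stand against this share. It also enlarged most falls, giving -2.38 for AKT1S1, -2.35 for PIK3R1, -2.26 for RPS6KB1 and -1.82 for TRIB3. Among the other subunits and assembly factors of the complexes, 3 of 9 tested genes rose and 5 fell (under median scaling, 1 rose and 5 fell), with a median of -0.31, against -0.19 over all genes. Without DMSO replicate 1 or DMSO replicate 3, 5 of these genes passed in place of 8. The share of all probes that passed was then 58.2% and 57%, in place of 66.8%. AKT1S1, which encodes the mTORC1 inhibitor PRAS40, read 6.47, 6.27 and 6.67 in atrazine, against 8.34, 8.17 and 8.39 in DMSO, and fell by 1.83 on the log2 scale (SE 0.13, limma adjusted p = 4.52e-05). It was above background on 2 of 3 atrazine arrays, so the size of its fall is less certain. MAPKAP1, which encodes SIN1, a subunit of mTORC2, rose by 1.59 (SE 0.12, adjusted p = 4.85e-05), or 0.50 under median scaling (adjusted p = 0.0224), while its second probe gave -0.46 and did not pass (0.291). RUVBL2, an ATPase of the complex that assembles such kinases, rose by 0.95, but gave 0.03 under median scaling, not past. TELO2, another assembly factor, stayed below detection on the atrazine arrays, which puts it at least 1.32-fold lower, but housekeeping scaling gave a difference of 0.12. DEPTOR, an inhibitor in both complexes, gave 0.05 and did not pass (adjusted p = 0.678), against 0.95 under housekeeping scaling. DEPTOR too was above background on 2 of 3 atrazine arrays, so the size of either difference is uncertain.

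In the list of the TSC complex, RHEB's relative and the kinases upstream, 3 of 14 tested genes rose and 5 fell (under median scaling, 1 rose and 12 fell), and the median was 0.02. TBC1D7, a further subunit of the TSC complex, read 9.20, 8.39 and 9.33 in atrazine, against 8.85, 8.89 and 8.95 in DMSO, and gave 0.08 (limma adjusted p = 0.787). Without atrazine replicate 2, the array that set RICTOR apart, it was 0.37 and passed (adjusted p = 0.0131), while median scaling of all 6 arrays gave -1.06, which passed the other way (adjusted p = 0.00567). PIK3R1, the regulatory subunit of PI3 kinase, fell by 1.42 on the log2 scale (adjusted p = 4.72e-04) on its brightest probe and gave -0.01 (0.951) on another. RPS6KA1, the kinase RSK1, fell by 1.02 on the log2 scale. AKT1, which phosphorylates TSC2 and PRAS40, rose by 0.95, but gave -0.21 under median scaling, not past. RHEBL1, below detection on the atrazine arrays, was at least 1.11-fold lower there, whereas housekeeping scaling gave 0.50.

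The lysosomal machinery that reports amino acids to mTORC1 had 2 rises and 8 falls among 20 tested genes (all 20 fell under median scaling), with a median of -0.23. SLC38A9, the arginine-sensing transporter, read 6.47, 5.61 and 6.49 in atrazine, against 8.11, 8.13 and 8.01 in DMSO, and fell by 1.90 on the log2 scale (SE 0.24, limma adjusted p = 4.39e-04). It was above background on 2 atrazine arrays. RRAGB, one of the Rag GTPases that bring mTORC1 to the lysosome, fell by 1.67 on the log2 scale (adjusted p = 1.05e-04). DEPDC5, of the GATOR complex that inactivates Rag, was below detection on the atrazine arrays with its brightest probe, hence at least 1.89-fold lower, while another probe gave 0.57 and did not pass (0.0771). Housekeeping scaling gave -0.28 for the brightest probe, a smaller difference than that bound. KICS2, a subunit of the KICSTOR scaffold, was likewise below detection there and at least 1.46-fold lower, with a difference of 0.0010 under housekeeping scaling.

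Substrates of mTORC1 and factors of translation went both ways, with 7 rises and 6 falls among 19 tested genes (under median scaling, 3 rose and 13 fell) and a median of 0.13. RPS6KB1, the S6 kinase that mTORC1 activates, read 9.10, 8.68 and 9.15 in atrazine, against 9.94, 10.20 and 10.05 in DMSO, and fell by 1.09 on the log2 scale (SE 0.15, limma adjusted p = 7.73e-04). EIF4EBP3, a relative of EIF4EBP1, rose by 1.41 (SE 0.20, adjusted p = 8.13e-04), or 0.86 under median scaling, and the translation factor EIF4G2 by 1.42 (SE 0.11, adjusted p = 5.44e-05). The cap-binding relative EIF4E2 rose by 1.28, but gave 0.15 under median scaling, not past. PDCD4, an inhibitor of the helicase EIF4A, fell by 1.22 on the log2 scale and was above background on 1 atrazine array, and its difference was -0.14 under housekeeping scaling. ULK1, the autophagy kinase that mTORC1 restrains, fell by 0.36 (adjusted p = 0.027). EIF4E and TFEB were not above background on any array.

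Of the stress and nutrient brakes other than DDIT4 and SESN2, 2 of 7 tested genes rose and 4 fell (6 fell under median scaling), with a median of -0.73, or -0.32 without atrazine replicate 2. SESN1, a paralogue of SESN2, read 8.62, 8.35 and 8.76 in atrazine, against 8.19, 8.24 and 8.26 in DMSO, and rose by 0.35 (SE 0.13, limma adjusted p = 0.0444), which became -0.75 and passed under median scaling. TXNIP, which restrains glucose uptake, rose by 0.61 (adjusted p = 0.0029), and gave 0.08, not past, under median scaling. TRIB3, a target of ATF4 and CHOP that binds AKT, fell by 0.76 on the log2 scale (adjusted p = 8.97e-04), the transcription factor gene FOXO3 fell by 1.02 and the mitophagy gene BNIP3 fell by 0.73. DDIT4L, the paralogue of DDIT4, was not above background on any array, and SESN3 was above it on 0 atrazine and 2 DMSO arrays and was not tested. After quantile normalisation DDIT4 thus rose along with SESN1 and TXNIP, while TRIB3, FOXO3 and BNIP3 fell and SESN2 and DDIT4L were not detectable. Whether ATF4 had a part in the rise of DDIT4 was not tested.

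The ATF4 arm of the integrated stress response, which is known to induce DDIT4 and SESN2, had 4 rises and 7 falls among 19 tested genes (under median scaling, 2 rose and 17 fell) and a median of -0.09. CEBPB, a dimer partner of ATF4, rose by 5.06 (limma adjusted p = 1.06e-05) and ASNS, asparagine synthetase, by 1.64 (adjusted p = 1.15e-04), or 0.77 under median scaling (adjusted p = 0.00993). The remaining rises were those of PSAT1 (0.75, adjusted p = 0.00273) and of DDIT3, which encodes CHOP (0.38, adjusted p = 0.0326). Neither is among the 2 rises under median scaling. EIF2S1, the subunit of eIF2 whose phosphorylation starts the response, fell by 1.54 on the log2 scale, and by 1.07 without atrazine replicate 2. It was above background on 2 atrazine arrays and 3 DMSO arrays. ATF4 fell by 1.16 on its brightest probe (adjusted p = 0.0435), by 0.63 without atrazine replicate 2, and rose by 0.87 on its other probe (6.67e-04). The remaining falls were those of EIF2AK3 (-1.13, adjusted p = 0.00212), SLC7A5 (-1.10, 6.58e-04), EIF2AK2 (-0.89, 0.0128), EIF2AK4 (-0.81, 0.0195) and ATF5 (-0.55, 0.00731). EIF2AK3 was above background on 2 atrazine arrays. CHAC1, VLDLR and SLC7A11 were not above background on any array. Among substrates of mTORC2 and a target of SGK1, 5 of 7 tested genes rose and the other 2 did not pass, with a median of 0.72. Median scaling left 2 rises beside 2 falls. AKT1 and AKT2 (0.63), both among these rises, also stand in the list of the upstream kinases. PRKAA1 (-0.40, adjusted p = 0.0246) likewise stands in that list and in that of the stress and nutrient brakes. The insulin-responsive kinase gene SGK1 rose by 2.10 (SE 0.16, adjusted p = 4.85e-05), the protein kinase C gene PRKCD by 0.87 and NDRG1, whose product SGK1 phosphorylates, by 0.72. Under median scaling SGK1 rose by 0.93 and passed, PRKCD gave -0.19 and did not, and NDRG1 gave -0.50 and passed.

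**Figure D5:**
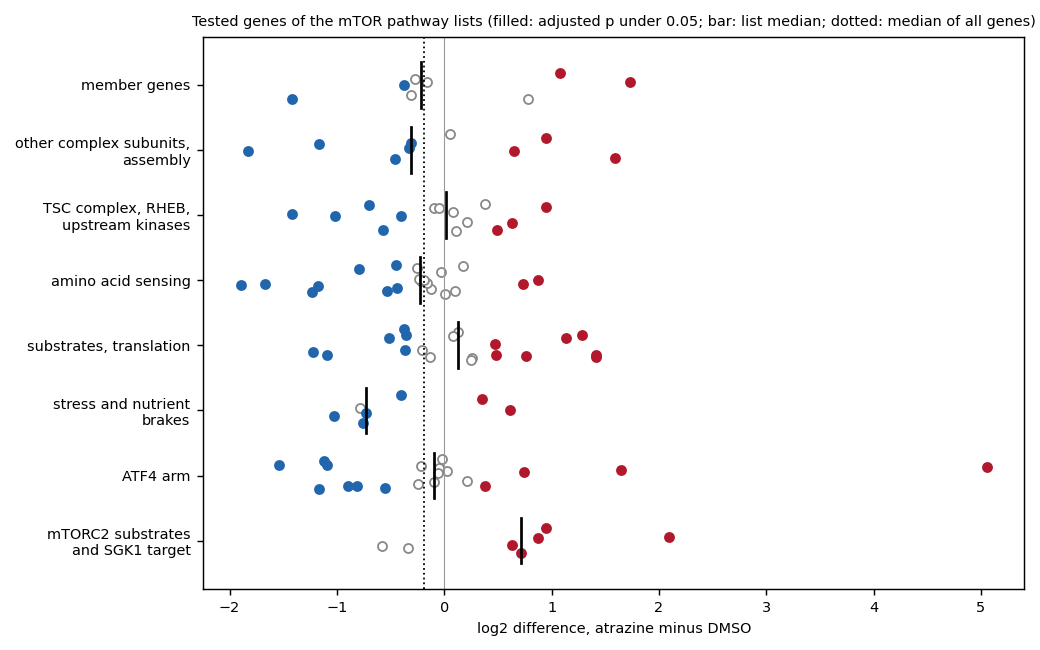
Log2 difference, atrazine minus DMSO, of each tested gene in the lists, with filled points past the threshold (red higher, blue lower in atrazine), a black bar at the median of each list and a dotted line at the median of all genes, -0.19. The list medians run from -0.73 for the stress and nutrient brakes to 0.72 for the mTORC2 substrates after quantile normalisation. Under median scaling that of the mTORC2 substrates is -0.19, where the median of all tested probes is -0.90.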

How the data were processed

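Total RNA was isolated with TRIzol and labelled as biotinylated cRNA, per the labels' protocols. The authors deposited, per the file headers, a signal intensity and a detection p-value for each probe and array, on a linear scale and without normalization that the values show. They also deposited a table of processed intensities with the same distribution on every array, used only as an alternative. The scanner software is not given in the sources used here.

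Intensities were corrected and normalized in R 4.3.3 with limma 3.58.1 (neqc: normexp background from the detection p-values, offset 16, quantile normalization, then log2). Every probe was its own feature, named through the platform annotation (19715 named, 19695 matched to a current gene). Probes entered the test if either group had all 3 arrays at a detection p-value under 0.05. Atrazine and DMSO were compared with lmFit and eBayes, two-sided. Pathway lists were read from the probe of highest mean and have no test of their own, and up to 4 members per list, by size of change among those past the threshold without overlap, and 15 fixed genes were named. The other genes of the ATF4 list past the threshold, CHAC1, VLDLR, SLC7A11, AKT2 and PRKAA1 were named in addition. A gene not above background in 1 group has a bound, computed against the lowest normalized value among detected probes or its own, whichever is higher. Alternatives were the background, offset, scaling, filter, probe choice, variance model, array weights, replicate block and each array left out; quantile normalization on the log2 scale was added after seeing the data. The procedure was run on simulated data in which few probes changed, equally often up and down. In the arrays 66.8% of probes passed, so that run does not show how the procedure behaves here. The members and lists were chosen with earlier results of these data known. The number of arrays limits precision.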

Additional observations from a re-analysis of the deposited data

How the results depend on the processing

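The call of DDIT4 held under every alternative run, that of TSC1 under every one that tested it (detection p under 0.01 on all 6 arrays left it out), and that of MLST8 under all but median scaling (-0.13). RICTOR turned to -0.39 under median scaling and RHEB to 0.050 under housekeeping scaling, with neither past. With array weights 76.3% of all probes tested passed. Of these 8 probes 7 passed, among them RICTOR (1.16), TSC2 (-0.44) and EIF4EBP1 (-0.31). Median scaling brought TSC2 (-1.38), RHEB (-0.98) and EIF4EBP1 (-1.32) past the threshold, housekeeping scaling TSC2 (-0.35), and detection p under 0.01 on all 6 arrays EIF4EBP1 (-0.31), where 3956 of 6178 probes passed in place of 8664 of 12969. With 1 array left out, all probes gave 7437 to 9397 calls, the pathway lists 46 to 62 genes (58 with all arrays) and these probes 3 to 6. The ranges were -0.48 to -0.30 for MTOR, 0.52 to 1.27 for RICTOR, 1.04 to 1.13 for MLST8, -1.52 to -1.31 for TSC1, -0.38 to -0.16 for TSC2, -0.21 to -0.07 for RHEB, -0.39 to -0.23 for EIF4EBP1 and 1.68 to 1.82 for DDIT4. Of all calls, 41.3% were rises in the main setting, 18.2% under median scaling and 59.9% under housekeeping scaling. Deviations of same-numbered arrays from their group means correlated at -0.172, -0.438 and -0.291, and those of differently numbered arrays at -0.198 to 0.433. Such deviations sum to 0 over the 3 arrays of a group, so these correlations are not independent of each other. All 3 same-numbered values were negative, and whether the replicate numbers pair the arrays was not tested. With the replicate block 7483 probes passed, and MTOR did not (-0.38, adjusted p = 0.100). Without the detection filter RPTOR (-0.26) and the second TSC2 probe (-0.28) passed, at intensities within the background.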
